A study of Mus musculus with 16 samples.

Results

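The natural killer (NK) cells of rejecting mouse kidney allografts were described from the single-cell RNA-seq matrix of CD45+ leukocytes taken 1 week after transplantation. In the rejection model, the graft was a C57BL/6J (B6) kidney and the recipient a DBA/2J mouse, and the comparison tissue is the spleen of naive mice. GEO's labels give strain C57BL/6J and genotype WT for both tissues, and neither they nor the study's methods give the age of these mice. A cell was counted as an NK cell when it held unique molecular identifiers (UMIs, counts of single captured mRNA molecules) of at least 2 of Ncr1, Klre1, Klrk1, Klrb1c and Gzma and no UMI of Cd3e, Cd3d, Cd3g, Cd79a, C1qa or Csf1r. The members were thus chosen by their own UMIs of these 11 genes, whose values are given below as a description. This rule took 317 of the 11948 CD45+ cells of the rejecting kidney, 179 of 5377 cells in library 1 (3.33%) and 138 of 6571 in library 2 (2.10%). The CD8+ T cells set beside them were the 2123 cells of the same matrix with a Cd3e UMI and a UMI of Cd8a or Cd8b1, 1177 in library 1 and 946 in library 2. The same rules gave 1131 NK cells and 4804 CD8+ T cells among the 47060 CD45+ cells of naive spleen, which came from 5 libraries. Libraries were told apart by the tag in each cell name, no label ties a tag to a mouse, and every p-value below measures the spread between libraries only. Accepted grafts were not analysed here.

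NK cells are innate lymphocytes that kill target cells with perforin and granzymes and release interferon gamma and chemokines, without a rearranged antigen receptor. Their activity is set by the balance of activating receptors, which signal through adaptors such as Tyrobp, Fcer1g and Hcst, and of inhibitory receptors that read MHC class I, many of them encoded side by side in the NK gene complex. In an allograft, donor MHC class I can fail to engage the inhibitory receptors of the recipient's NK cells, a state known as missing self. DBA/2J mice are known to lack CD94, the product of Klrd1, and the Ly49H and Ly49D receptors that B6 mice encode in Klra8 and Klra4.

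Runx factors and T-box factors such as Eomes and T-bet are known regulators of NK cell genes, and the promoters of Ncr1, Gzma and Prf1 are shown, of the 7 that were searched, because the first is a receptor that defines NK cells and the others encode the killing proteins described below. Each run is the 250 bases before the RefSeq start in GRCm38.p6, on the gene's own strand, and capitals mark TGTGGT, the Runx core, and AGGTGT, a T-box half-site, on either strand, where they read ACCACA and ACACCT. Ncr1 encodes the activating receptor NKp46 and lies on the plus strand, with the window at chr7:4337465-4337714. Gzma encodes granzyme A and lies on the minus strand, with the window at chr13:113100982-113101231. Prf1 encodes perforin and lies on the plus strand, with the window at chr10:61297586-61297835.
Ncr1: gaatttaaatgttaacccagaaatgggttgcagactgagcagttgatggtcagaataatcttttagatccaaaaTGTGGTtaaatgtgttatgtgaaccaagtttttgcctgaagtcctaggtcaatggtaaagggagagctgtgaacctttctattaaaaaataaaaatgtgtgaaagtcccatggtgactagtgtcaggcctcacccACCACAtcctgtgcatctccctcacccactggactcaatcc
Gzma: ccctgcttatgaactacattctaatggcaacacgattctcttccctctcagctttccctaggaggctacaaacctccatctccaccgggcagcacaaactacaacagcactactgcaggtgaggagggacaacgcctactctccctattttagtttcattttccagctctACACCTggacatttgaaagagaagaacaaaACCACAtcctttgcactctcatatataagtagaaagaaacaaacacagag
Prf1: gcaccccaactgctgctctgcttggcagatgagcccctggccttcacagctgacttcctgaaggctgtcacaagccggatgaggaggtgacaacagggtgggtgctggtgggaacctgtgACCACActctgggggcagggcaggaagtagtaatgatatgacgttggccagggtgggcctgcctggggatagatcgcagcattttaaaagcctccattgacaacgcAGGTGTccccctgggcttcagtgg
Ncr1 held 2 Runx cores and 0 T-box half-sites, while Gzma and Prf1 each held 1 of both, and no pair of matches overlapped. Klre1, Klrk1 and Klrb1c each held 1 Runx core and 0 T-box half-sites, and Eomes 0 of both. Of 27025 RefSeq promoters of this length, 14.2% held a Runx core and 11.99% a T-box half-site. These are matches of letters in the B6 reference and were not tested as binding sites.

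The cells taken by the rule carried NK genes that the rule did not use, and these appeared with the number of rule genes a cell held. Among kidney cells without a UMI of the excluded genes, 1502 held 0 of the NK genes, 582 held 1, 140 held 2, 118 held 3, 52 held 4 and 7 held all 5. Eomes, a T-box transcription factor of conventional NK cells, was detected in 0.133% of the cells with 0 rule genes, 3.78% of those with 1, 33.6% with 2, 44.9% with 3, 50% with 4 and 42.9% of the 7 cells with all 5. Prf1 went from 5.50% just outside the threshold, at 1 rule gene, to 52.9% just inside it, at 2, and Nkg7, a granule membrane protein of cytotoxic cells, from 11.3% to 78.6%. Lyz2, the lysozyme of macrophages, went from 73.4% to 27.1% between these groups and was detected in 42.9% of the 7 cells with all 5. The combination at the edge of the rule was Klrk1 with Gzma alone, which took 32 members, 31.2% of them with an Eomes UMI and 78.1% with an Nkg7 UMI. A further 7 members held Klrk1 and Klrb1c alone, and in them Cst3, a gene of myeloid cells, was detected in 100% and Nkg7 in 14.3%.

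**Figure D1:**
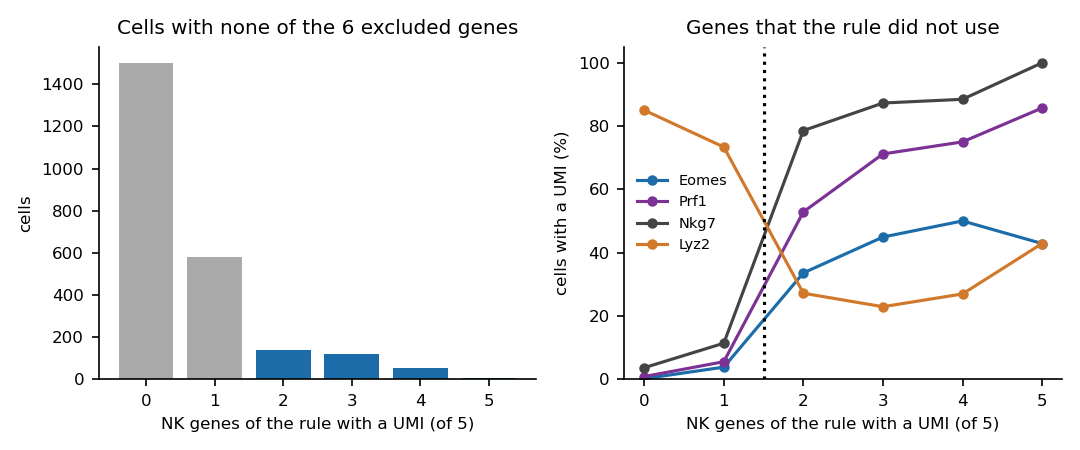
Left, the number of rejecting kidney cells without a UMI of the 6 excluded genes, by the number of the 5 NK rule genes detected in the cell, with the members in blue. Right, the percent of those cells with a UMI of Eomes, Prf1, Nkg7 and Lyz2, where a dotted line marks the threshold: Eomes goes from 3.78% at 1 rule gene to 33.6% at 2, and Lyz2 from 73.4% to 27.1%.

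Markers of other lymphoid and myeloid cells set limits on how pure the NK cells were. No member held a UMI of 7 ILC2 and ILC3 genes or of 4 mast cell and basophil genes, and 5 B cell genes were seen in 1 member. Of 5 macrophage genes (Lyz2, C1qb, C1qc, Apoe and Adgre1), at least 1 was detected in 37.9% of the NK cells, with 534 and 966 CPM in all in libraries 1 and 2, against 7.69 to 64.0 in the spleen libraries. CPM here are counts per 1000000 UMIs of that cell group in that library. CD8+ T cells of the kidney held 2669 and 975 CPM of the same genes. The NK rule removed cells with a C1qa or Csf1r UMI and the CD8+ T cell rule did not, so these sums are not measures of purity that can be set against each other. T cell receptor and coreceptor genes were detected in 55.2% of the kidney NK cells and 65.6% of the spleen NK cells, for the most part Trbc1 and Trbc2, whereas Trac stood at 24.9 and 26.6 CPM in kidney NK cells against 787 and 794 in CD8+ T cells. The study's own CD8 T cell matrix of the same graft, with 2184 cells, held 8 of the 317 NK cells (2.52%). No doublet caller was run. A further 365 cells held at least 2 NK genes and an excluded gene, with a median of 3457 UMIs, and were left out by the rule.

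The kidney libraries held 13437087 and 19552578 UMIs, and the spleen libraries 30054753 to 37016197. NK cells were shallow, with medians of 1380 and 1844.5 UMIs in the kidney libraries against 2005 and 3438.5 for CD8+ T cells there, and 2063.5 to 2831 for NK cells of the spleen. Mitochondrial genes took a median of 1.01% and 0.801% of UMIs in kidney NK cells and 2.47% to 3.12% in spleen NK cells, and ribosomal protein genes 13.5% and 15.0% against 17.4% to 20.1%. Libraries 1 and 2 of the kidney shared 13 cell barcodes (0.242% of the smaller library), and 0 of them were shared between NK cells. With 2 kidney libraries and 5 spleen libraries, an exact two-sided permutation test cannot go below p = 0.0952.

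The sign of the difference in the share of NK cells among leukocytes between the rejecting kidney and naive spleen depended on how NK cells were chosen. With 2 rule genes, the share was 3.33% and 2.10% in the kidney libraries and 1.98%, 2.31%, 2.67%, 2.28% and 2.84% in those of the spleen. One kidney library lay above every spleen library and the other within their range. The means were 2.71% ± 0.869 (SD, n = 2) and 2.42% ± 0.339 (SD, n = 5), which differ by 0.297 percentage points (exact permutation test, two-sided, p = 0.571). With 3 rule genes, the share was 1.82% and 1.20% in the kidney libraries and 1.97%, 2.31%, 2.62%, 2.23% and 2.80% in those of the spleen. Both kidney libraries then lay below every spleen library, by a mean of 0.873 percentage points. These shares are counted from the UMIs of the rule genes, and kidney members held fewer of these genes. All 5 were held by 7 of the 317 kidney members and 718 of the 1131 spleen members, and exactly 2 by 140 and 15. Kidney NK cells were also shallower, with a median of 1489 UMIs against 2444, and the part of depth was not tested. With 2 rule genes, the difference was −0.269 percentage points in NK cells without UMIs of other lineages and −0.324 with every cell thinned to 1000 UMIs before the rule was applied. The difference stayed positive at 0.408 in NK cells without T cell UMIs and 0.308 under a cell quality filter. In members with an Ncr1, Klre1 or Klrb1c UMI it was 0.026. A rule that asks for 3 rule genes drops the members with exactly 2, so none of these shares is a measure of cell numbers apart from the detection of those genes. Per 100 CD8+ T cells there were 15.2 and 14.6 NK cells in the kidney, and 19.3 to 27.9 in the spleen. This ratio depends on depth. With both rules applied after thinning to 1000 UMIs, the kidney libraries held 156 and 110 NK cells and 819 and 512 CD8+ T cells. The spleen libraries then held 207 to 288 NK cells and 234 to 331 CD8+ T cells.

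Within the rejecting kidney, NK cells held more of several lectin-like receptors, of Itga2 and of Eomes than CD8+ T cells did, and less of Pdcd1, Ctla4 and several T cell signalling genes. The rule chose both groups from this matrix, so the comparison is given as levels with no test. Of 3788 genes with at least 50 CPM in either group, 189 were at least 2-fold higher in NK cells in each library (4.99%) and 93 at least 2-fold lower (2.46%), and the median gene differed by 0.01 on the log2 scale. Many receptors of the Klra, Klrb1 and Klrc families, and some of the granzymes, have close copies within their family, and reads can be split between such copies.

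Among the rule genes, Ncr1 stood at 620 and 545 CPM in NK cells and at 5.47 and 1.29 in CD8+ T cells. Gzma was the most abundant of them, at 6174 and 6562 CPM against 107 and 200. Klre1, a lectin-like receptor, stood at 591 and 442 CPM against 20.3 and 16.3. Klrk1, which encodes the activating receptor NKG2D, differed least, with 502 and 355 CPM in NK cells and 182 and 152 in CD8+ T cells, and is known in activated CD8+ T cells as well. Klrk1 was also detected in 31.6% of kidney cells with a Csf1r or C1qa UMI and no CD3 UMI, at 135 and 160 CPM. Of the cells with 1 rule gene, just outside the threshold, 86.6% held a Klrk1 UMI. Klrb1c, the gene of NK1.1, stood at 85.5 and 110 CPM in NK cells. Eomes, which the rule did not use, was 28.2-fold and 20.4-fold higher in NK cells, at 445 and 296 CPM against 15.8 and 14.5.

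The 10 genes with the highest ratio in NK cells included lectin-like receptors, an integrin subunit, an adaptor, a serpin and a secreted protein. Klrg1, an inhibitory receptor for cadherins, stood at 143 CPM in both kidney libraries against 0.322 and 1.55 in CD8+ T cells. Itga2, the integrin subunit CD49b that marks mature NK cells, stood at 324 and 266 CPM against 5.79 and 2.32. Klri1 and Klri2, the lectin-like partners of Klre1, were 56.5-fold and 38.6-fold, and 78.4-fold and 97.2-fold higher. The killer lectin-like receptor genes Klrb1a, Klrb1f and Klra7 were at 143 to 203 CPM in NK cells and at most 6.97 in CD8+ T cells. Clnk, an adaptor of immunoreceptor signalling, stood at 356 and 302 CPM against 7.72 and 2.84. Serpinb9b, of the granzyme inhibitor family of serpins, stood at 292 and 149 CPM against 1.61 and 0.516, which rest on 5 and 2 UMIs. Spp1, which encodes the secreted protein osteopontin, was 76.0-fold higher in library 1 and 11.3-fold in library 2, with 367 and 96.3 CPM in NK cells.

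The genes with the lowest ratio included several known from T cells. Apart from Cd8a and Cd8b1, which define the CD8+ T cells, Pdcd1, the gene of PD-1, stood at 14.3 and 53.1 CPM in NK cells against 448 and 432, and Ctla4 at 21.4 and 19.9 against 315 and 199. Cd5 had 0 UMIs in the NK cells of both libraries and was at least 13-fold lower, taking 3 UMIs per library as the floor. Bcl11b, a transcription factor of T cell commitment, stood at 7.13 and 6.64 CPM against 235 and 238, and Themis, of T cell receptor signalling, at 0 and 3.32 against 299 and 288. Cd6, Adam19 and Nrp1 were the others, with at most 46.5 CPM in NK cells and at least 104 in CD8+ T cells. Nrp1 stood at 247 and 308 CPM in CD8+ T cells and at 273 and 304 in the kidney cells with a macrophage gene, which the CD8+ T cell rule did not remove.

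**Figure D2:**
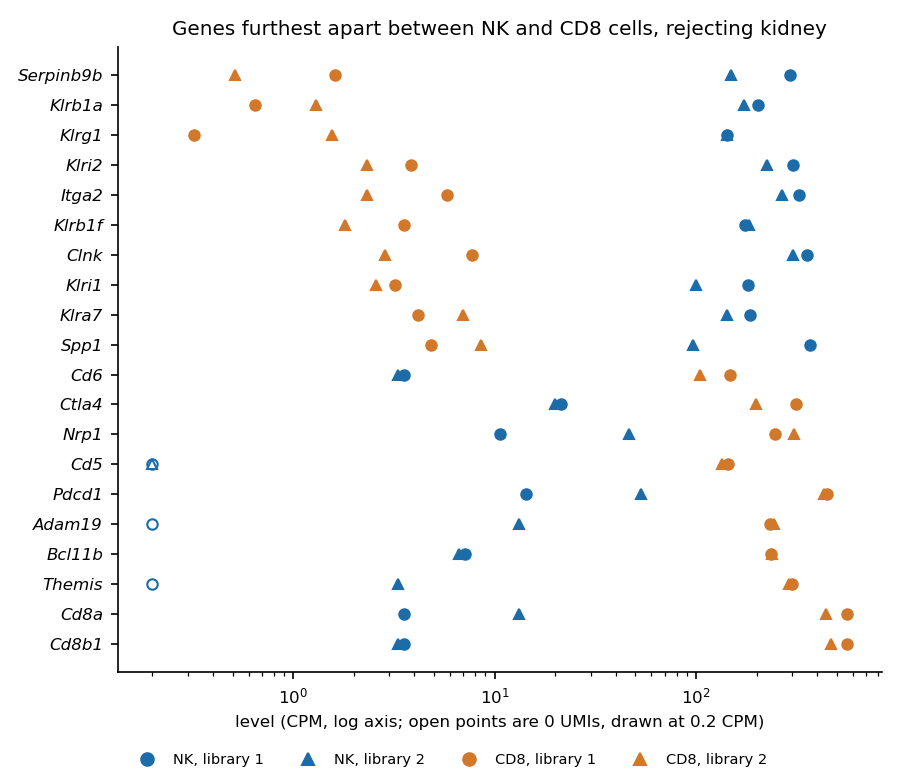
Level in CPM (log axis) of the genes with the highest and lowest ratio between NK cells (blue) and CD8+ T cells (orange) of the rejecting kidney, with circles for library 1, triangles for library 2 and open points, drawn at 0.2 CPM, for 0 UMIs. The upper 10 genes lie to the right in NK cells, such as Itga2 at 324 and 266 CPM, and the lower 10 in CD8+ T cells, such as Pdcd1 at 448 and 432.

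By function, the inhibitory and MHC class I receptors had the most members on the NK side: 8 of 10 compared genes were at least 2-fold higher in both libraries and 0 lower, with a list median of 4.66 on the log2 scale. Of 14 activating receptors and adaptors, 4 were higher (Cd244a, Crtam, Tyrobp and Klrb1f) and 1 lower (Slamf6). Tyrobp, the DAP12 adaptor, stood at 1097 and 1455 CPM against 323 and 197. Fcer1g and Hcst, the other adaptors, did not pass 2-fold in both libraries, with 723 and 777 CPM of Fcer1g in NK cells against 453 and 284.

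Of 13 granule and death genes, 6 were higher in NK cells and 0 lower. Prf1 stood at 1094 and 1000 CPM in NK cells against 144 and 238 in CD8+ T cells, and Gzmc and Gzmf at 60.6 to 166 against 5.47 to 31.5. Gzmb was not among them, with 866 and 717 CPM in NK cells and 847 and 1519 in CD8+ T cells, so that it was equal in library 1 and lower in NK cells in library 2. Fasl and the granzyme inhibitor Serpinb9 were 2.87-fold to 7.74-fold higher in NK cells.

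Of 7 cytokines and chemokines, 4 were higher in NK cells and 0 lower. These were the T cell and monocyte attractants Ccl3, Ccl4 and Ccl5 and the dendritic cell attractant Xcl1. Ccl5 stood at 12534 and 5908 CPM in NK cells against 2280 and 268, and Xcl1 at 734 and 402 against 176 and 131. Ifng stood at 89.1 and 53.1 CPM in NK cells and at 140 and 168 in CD8+ T cells, a ratio of 0.636 and 0.316.

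Of 15 cytokine receptor and signalling genes, 6 were higher and 1, Il2ra, lower. Il12rb2, the signalling chain of the IL-12 receptor, stood at 527 and 339 CPM against 38.3 and 23.8, Il18rap at 809 and 399 against 100 and 103, and Stat4, which IL-12 activates, at 688 and 382 against 253 and 180. Il2rb, the chain shared by the IL-2 and IL-15 receptors, was 2.90-fold and 2.10-fold higher. Of 13 transcription factors, Eomes, Irf8, Klf2 and Klf12 were higher and Tox lower. Irf8 stood at 2120 and 1255 CPM against 261 and 204, and Tbx21, the gene of T-bet, at 178 and 269 against 91.1 and 77.2.

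Of 20 homing and adhesion genes, 4 were higher in NK cells, among them Itga2 and Itgam, and 1, Cxcr6, was lower. Itgam, the integrin subunit CD11b, stood at 167 and 179 CPM against 72.7 and 48.8. Cxcr6, named here after its values were seen, stood at 32.1 and 23.3 against 284 and 218. Of 9 checkpoint genes, Cd160 was higher and Pdcd1, Lag3, Ctla4 and Nt5e were lower. Of 8 genes of type 1 innate lymphoid cells (ILC1) and tissue residency, Rora was higher and Cxcr6 and Inpp4b lower.

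Of 7 proliferation genes, 0 were higher and 3 lower: Top2a, Pclaf and Tubb5. Mki67 stood at 71.3 CPM in the NK cells of library 1 and 435 in those of library 2, against 207 and 800 in CD8+ T cells, so both cell groups had the higher value in library 2. None of 11 interferon-stimulated genes and none of 12 glycolysis genes passed 2-fold in either direction, and of 12 immediate early genes 1, Junb, was higher. Of the lists of other cell types, 10 of 12 T cell genes were lower in NK cells, Cd8a and Cd8b1 that define the CD8+ T cells among them, 1 of 9 myeloid genes, C1qb, was lower, 0 of 3 dendritic cell genes passed, and both kidney parenchyma genes compared, Pecam1 and Spp1, were higher. Pecam1, also an adhesion molecule of leukocytes, stood at 232 and 216 CPM against 55.4 and 60.2, and 13 of the 20 parenchyma genes had 0 UMIs in kidney NK cells.

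Shares of cells with a UMI were compared at equal depth by thinning each cell to 1000 UMIs. All 317 NK cells and 2123 CD8+ T cells of the kidney had that depth, and 5558 cells of the kidney with a Csf1r or C1qa UMI and no CD3 UMI gave the background of free RNA. Eomes was detected in 30.3% of NK cells (95% exact binomial interval 25.3% to 35.7%, counting error only), 1.84% of CD8+ T cells and 0.198% of the macrophage-marked cells, and unthinned in 40.7% of NK cells. Prf1 was in 53.3%, 14.5% and 0.324%, and Il2rb in 50.8%, 26.3% and 0.468%. Gzmb was in 34.4% of NK cells and 52.5% of CD8+ T cells, and Itga1, an integrin of ILC1 and resident cells, in 10.4% and 24.5%. Lyz2 was in 17.0% of NK cells, 21.4% of CD8+ T cells and 86.6% of macrophage-marked cells. Mki67 was detected in 3.35% of NK cells in library 1 and 15.9% in library 2.

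Compared with NK cells of naive spleen, NK cells of the rejecting kidney had no detected Klra8 or S1pr1 and little Klra4 and Klrd1, and held more Xcl1, Irf8, Il12rb2, Tgfb1 and genes of the ILC1 and residency list. Of 7578 genes tested by edgeR's quasi-likelihood test, 1656 rose in the kidney at a Benjamini-Hochberg adjusted p under 0.05 (21.9%) and 1360 fell (17.9%), and the median gene moved by −0.02 (log2). The rule genes were left out of the test. Fewer transcripts per cell and fewer cells holding them cannot be told apart in these sums, and the strain of the cells, the tissue, transplantation and the processing of each matrix cannot be told apart either.

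Genes with long introns were higher in the kidney as a class. The median log2 change went from −0.63 in the tenth of genes with the shortest introns (median 570 bases in all) to 1.22 in the tenth with the longest (166613 bases). In the NK against CD8+ T cell comparison within the kidney, the same medians went from −0.17 to 0.17. With the median shift of each of 10 intron length groups taken out, 1871 of the 3016 genes called kept their call and direction, 1134 of them higher (15.0% of all tested) and 737 lower (9.73%), while 164 changed sign. The counts of genes that kept their call stand in brackets in the list results that follow, and what the shift comes from was not tested.

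**Figure D3:**
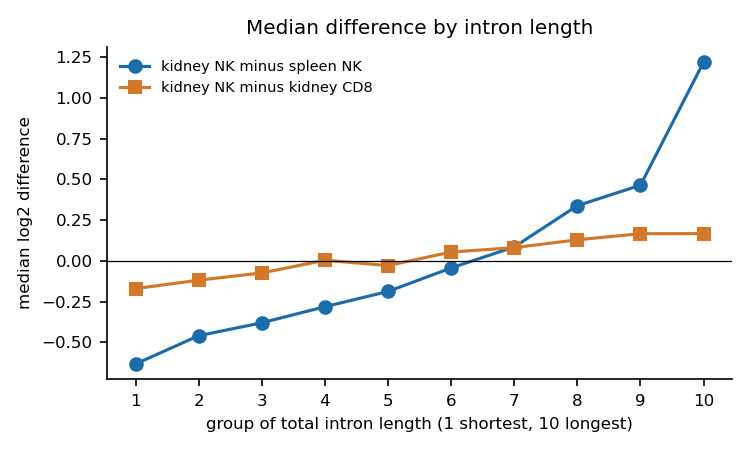
Median log2 difference (vertical axis) of genes in 10 groups of total intron length, from shortest to longest (horizontal axis), for kidney NK cells over spleen NK cells (blue circles) and kidney NK cells over kidney CD8+ T cells (orange squares). The first climbs from −0.63 to 1.22 and the second from −0.17 to 0.17.

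The receptors that differ between B6 and DBA/2J mice were among the genes that fell furthest. Klra8 (chr6:130115226-130129898, minus strand, GRCm38) had 0 UMIs in both kidney libraries and 876, 927, 863, 1099 and 967 CPM in the spleen libraries, so that it was at least 182-fold lower in the kidney, taking 3 UMIs over the group as the floor. Klra4, beside it at chr6:130043731-130067271, stood at 7.13 and 3.32 CPM in the kidney and 826 to 1116 in the spleen, a log2 change of −7.60 ± 0.33 (SE). Klrd1 at chr6:129591782-129598775 stood at 121 and 73.1 CPM against 1043 to 1188 (−3.64 ± 0.20, adjusted p = 4.65e-15). Both kidney libraries lay below every spleen library in these 3 genes, as they did in 21.1% of all genes tested. In kidney CD8+ T cells, Klra8 and Klra4 were also at 0 UMIs, and Klrd1 stood at 80.1 and 41.8 CPM. Levels of Klra8 and Klra4 in spleen CD8+ T cells are not given here, so these zeros are no measure of a change in CD8+ T cells.

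Of 15 genes tested in the list of inhibitory and MHC class I receptors, 10 fell (8) and 3 rose (3), with a median of −1.16. The list also holds Klrg1, Klrb1a and Klrb1b, which are not receptors of MHC class I, and Klrb1b was among the 10 that fell. The 3 that rose were Klra3, Klra5 and Klri1. Klra3, an inhibitory Ly49 receptor, stood at 424 and 359 CPM in the kidney against 158 to 255, and Klri1 at 182 and 99.6 against 0 to 12.8. Klrc2, which pairs with CD94 as an activating receptor, fell by 2.97 on the log2 scale, from 720 to 764 CPM in the spleen to 110 and 96.3. Of 16 activating receptors and adaptors, 5 fell (4) and 4 rose (3). The adaptors Tyrobp and Fcer1g fell by 1.17 and 1.54 on the log2 scale, and Crtam, a receptor for a nectin-like ligand, rose by 2.28 ± 0.26. The rule genes, with no test, were lower in the kidney: Ncr1 at 620 and 545 CPM against 811 to 984, and Klrb1c at 85.5 and 110 against 837 to 1007.

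**Figure D4:**
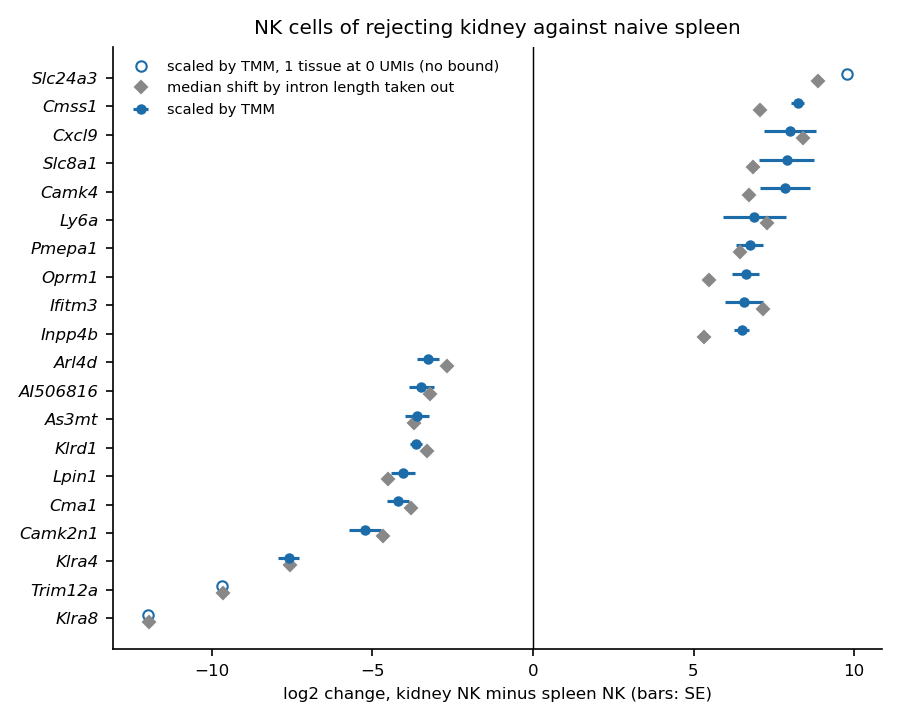
Log2 change of the 10 highest and 10 lowest named genes in NK cells, rejecting kidney minus naive spleen, from edgeR with TMM scaling (blue, bars are SE) and with the median shift by intron length taken out (grey diamonds). Open points are genes with 0 UMIs in one tissue, whose position is no bound; Inpp4b is at 6.49 and 5.33, and Klrd1 at −3.64 and −3.28.

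Of 13 granule and death genes, 7 rose (7) and 3 fell (1). Gzmb stood at 866 and 717 CPM in the kidney against 558, 319, 488, 337 and 283 in the spleen, all lower than either kidney library, as in 30.2% of all genes tested, a log2 change of 0.87 ± 0.29 (adjusted p = 0.0402). Prf1 stood at 1094 and 1000 CPM against 835 to 1047, the groups overlapped, and the log2 change of 0.05 ± 0.13 did not pass (adjusted p = 0.785). Gzmc rose by 5.83 ± 0.61 from 0 to 3.29 CPM in the spleen, and Fasl by 0.89 ± 0.20. Without kidney library 1, 4 of 14 genes of the list rose and 2 fell, and with intron length shifts removed 10 of 13 rose and 1 fell. Nkg7 fell by 0.84 on the log2 scale, and this call was lost with intron length shifts removed (−0.23, adjusted p = 0.130).

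Of 9 cytokines and chemokines, 4 rose (4) and 0 fell, with a median of 0.76. Without kidney library 1, 4 rose and 1 fell (median 0.10), and without library 2, 3 rose and 0 fell (median 0.93). In NK cells without UMIs of other lineages, 4 rose and 1 fell. Xcl1 stood at 734 and 402 CPM against 135 to 199 (1.66 ± 0.20), and Tgfb1 at 591 and 219 against 66.4 to 97.8 (2.27 ± 0.36). Kidney cells with a macrophage gene held 8.88 and 1.80 CPM of Xcl1, and 301 and 247 of Tgfb1. For Tgfb1 this was less than in NK cells in library 1 and more in library 2, and the part of their RNA was not tested. Ccl5 stood at 12534 and 5908 CPM against 12340 to 16290 and did not pass (−0.79 ± 0.29, adjusted p = 0.0669). Ifng stood at 89.1 and 53.1 CPM against 74.0 to 167 (−0.87 ± 0.34, adjusted p = 0.0535), with overlap between the groups.

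Of 17 cytokine receptor and signalling genes, 6 rose (6), among them Il12rb2, Il21r, Tgfbr1 and Tgfbr2, and 1, Il7r, fell (1). These counts turned on the library: without kidney library 1, 5 of 18 rose and 3 fell, with a median of −0.28, and without library 2, 10 of 20 rose and 1 fell, with a median of 0.74, against 0.40 with both. With intron length shifts removed, 7 of 17 rose and 3 fell. Il12rb2 stood at 527 and 339 CPM against 71.8 to 94.2 (2.31 ± 0.18, adjusted p = 1e-11). Of 16 transcription factors, 6 rose (4) and 5 fell (4). Irf8 stood at 2120 and 1255 CPM against 326 to 473 (2.04 ± 0.19), and Klf2, a factor of lymphocyte recirculation, at 139 and 106 against 839 to 1236 (−3.14 ± 0.20). Eomes stood at 445 and 296 CPM against 387 to 535 and did not pass (−0.40 ± 0.18, adjusted p = 0.0669). Ets1 was called higher (0.76) and with intron length shifts removed lower (−0.41, adjusted p = 0.0157), and Id2 was called lower (−0.61) and went to 0.00.

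Of 24 homing and adhesion genes, 9 fell (8) and 4 rose (3), and without kidney library 1, 6 fell and 2 rose. S1pr1, the receptor by which lymphocytes leave tissues and a target of Klf2, had 0 UMIs in kidney NK cells against 46.2 to 73.7 CPM in the spleen, at least 11-fold lower, and S1pr5, the receptor of NK cell egress, fell by 2.71 on the log2 scale, from 158 to 230 CPM to 28.5 and 33.2. Both were named after their values were seen. Of the ILC1 and residency list, 9 of 11 rose (9) and Il7r fell (1), with a median of 2.52 against −0.02 for all genes. Itga1 stood at 118 and 246 CPM against 3.29 to 14.2 (4.14 ± 0.32), Inpp4b at 620 and 558 against 3.29 to 10.7 (6.49 ± 0.23), and Cxcr6 at 32.1 and 23.3 against 2.56 to 14.8 (2.00 ± 0.62, adjusted p = 0.0106). Itga2 stood at 324 and 266 CPM against 221 to 268 and did not pass (0.14 ± 0.16, adjusted p = 0.532).

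Of 7 checkpoint genes tested, 6 rose (5) and 0 fell. Havcr2, the gene of TIM-3, stood at 64.1 and 66.4 CPM in the kidney and at 0 to 1.64 in the spleen (6.77 ± 0.70), Tigit at 64.1 and 23.3 against 0 to 3.29, and Entpd1, the gene of CD39, at 207 and 199 against 22.7 to 47.7. In the interferon list 5 of 15 rose (5), with Gbp2 at 57.0 and 226 CPM against 15.4 to 28.4, and 2 fell (1). Without kidney library 1, 10 of 18 interferon genes rose and 1 fell (median 1.16), and without library 2, 4 of 15 rose and 2 fell (median 0.02). With intron length shifts removed, 9 of 15 rose and 1 fell. Of 14 glycolysis and hypoxia genes, 7 rose (7) and 1 fell (1), with Hif1a at 103 and 193 CPM against 24.7 to 55.1. With intron length shifts removed 12 rose and 1 fell, and without kidney library 2, 5 rose and 2 fell. Of 15 immediate early genes, 5 rose (5) and 5 fell (2), and without kidney library 2, 8 rose and 2 fell. Cells of the kidney with a macrophage gene held 231 and 166 CPM of Havcr2, 627 and 442 of Entpd1, 922 and 1256 of Gbp2 and 367 and 428 of Hif1a, more than the NK cells, and 1.25 and 0.635 of Tigit, and the part of their RNA in these increases was not tested. In NK cells without T cell UMIs, where fewer genes could be tested, 1 of 3 checkpoint genes, 2 of 7 cytokines and chemokines, 3 of 13 cytokine receptor genes, 4 of 11 granule genes, 2 of 21 homing genes and 5 of 6 ILC1 and residency genes rose. In the same order of lists, 0, 0, 2, 2, 9 and 0 genes fell. Of all 3819 genes tested in these cells, 773 rose and 620 fell.

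No proliferation gene rose among 12 tested, and 1, Pcna, fell. Without kidney library 1, 1 of 13 rose and 0 fell (median 0.99), and without library 2, 0 of 12 rose and 2 fell (median −1.25). Mki67 stood at 71.3 and 435 CPM in the kidney and at 130, 18.4, 119, 77.8 and 39.5 in the spleen, so that the groups overlapped (1.58 ± 0.88, adjusted p = 0.226). The summed level of the proliferation list was 876 and 3414 CPM in the kidney libraries against 931 to 2070.

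Among genes called higher with 100 CPM or more, the 10 with the largest fitted increases were Slc24a3, Cmss1, Cxcl9, Slc8a1, Camk4, Ly6a, Pmepa1, Oprm1, Ifitm3 and Inpp4b. Slc24a3, a potassium-dependent sodium and calcium exchanger, stood at 249.4 and 195.9 CPM and had 0 UMIs in the spleen NK cells, at least 229-fold higher. Iigp1, an interferon-induced GTPase named after its values were seen, was at least 260-fold higher by its 146 UMIs in the kidney and 0 in the spleen, but was not called (adjusted p = 0.150), with 103 and 389 CPM in the 2 kidney libraries against 1237 and 2130 in the kidney cells with a macrophage gene. Pmepa1, a target of TGF-beta signalling, stood at 224 and 130 CPM against 0 to 1.84 (6.74 ± 0.41). Of these 10 genes, 6 have more than 200000 bases of intron, against 3.93% of all genes tested, and all 10 kept their call with the shifts removed. Macrophage-marked cells of the 2 kidney libraries held 3013 and 4239 CPM of Cxcl9, 1237 and 1206 of Slc8a1, 989 and 2090 of Ifitm3 and 997 and 2208 of Ly6a, more than the NK cells, and the part of free RNA in these genes was not tested. Cxcl9, an interferon gamma-induced chemokine, lost its call in NK cells without T cell UMIs (9.61, adjusted p = 0.251), and Slc8a1 without spleen library 4 (9.11, adjusted p = 0.140).

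Myeloid genes moved with these changes: 7 of 10 tested rose (7), with a median of 3.74, and 3 of 4 dendritic cell genes rose. Without kidney library 2, 4 of 8 myeloid genes rose and 1 fell, and in NK cells without UMIs of other lineages 4 of 6 rose and 1 fell (median 2.09). Of the dendritic cell genes, 1 of 3 rose without kidney library 1 and 1 of 4 without library 2. Lyz2 stood at 342 and 853 CPM in kidney NK cells and at 3.29 to 49.8 in spleen NK cells, and Cd74 at 1047 and 1674 against 33.2 to 224. The summed level of the 14 myeloid genes was 1935 and 3454 CPM against 899 to 1295. That of the 20 kidney parenchyma genes, 3 of which rose of 3 tested, was 627 and 382 CPM. In the spleen, whose matrix lists 10 of them, it was 39.1 to 60.2. The kidney sum rests mostly on Spp1, at 367 and 96.3 CPM, and Pecam1, at 232 and 216. Kap, Miox, Slc34a1 and Umod had 0 UMIs in kidney NK cells. The part of RNA of other cell types in the other increases was not tested. Of 7 T cell genes, Trac and Thy1 rose and Trbc1, Lat and Lck fell, and Trbc1 changed sign with intron length shifts removed (0.12, adjusted p = 0.592). Without kidney library 1, 1 of 8 T cell genes rose and 2 fell, and without library 2, 0 rose and 3 fell. Trac stood at 24.9 and 26.6 CPM against 1.84 to 10.7 in the spleen, and Trdc, the delta chain gene, at 81.9 and 46.5 against 65.4 to 97.7 (−0.40 ± 0.27, adjusted p = 0.247). Tcrg-C4, the other of 2 gamma-delta T cell genes tested, rose, with 35.6 and 53.1 CPM in kidney NK cells, and the list median was 0.81.

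Beside the Klra genes and Klrd1, the 10 largest fitted decreases among genes called lower with 100 CPM or more were Trim12a, Camk2n1, Cma1, Lpin1, As3mt, AI506816 and Arl4d. Trim12a, with a near-identical family member, had 0 UMIs in kidney NK cells against 178 to 199 CPM, at least 36-fold lower, and its log2 change in CD8+ T cells was −9.18. Cma1, a chymase, stood at 17.8 and 9.96 CPM in the kidney against 192 to 302, and Lpin1, a phosphatidate phosphatase, at 21.4 and 3.32 against 156 to 224. All 10 kept their call and direction with intron length shifts removed.

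The last comparison asked whether NK cells differed between kidney and spleen in the same way as CD8+ T cells did. Granzyme B, chemokine and interferon gamma genes parted the cell types: in naive spleen the NK cells held 283 to 558 CPM of Gzmb, 208 to 447 of Ccl3 and 74.0 to 167 of Ifng, and the CD8+ T cells 0.972 to 5.17, 0.486 to 0.827 and 2.53 to 5.59. Of 11170 genes, the NK change was higher than the CD8+ T cell change for 673 (6.03%) and lower for 943 (8.44%) in edgeR's test of the difference, with a median of −0.08 over all genes. With plain library totals the split was 430 and 1988, so the balance of the directions depends on the scaling.

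Gzmb had the most negative difference, −6.97 ± 0.46 (adjusted p = 0.00022), with a log2 change of 0.87 in NK cells and 7.79 in CD8+ T cells. Ccl3 changed by 0.00 in NK cells, at 335 and 312 CPM in the kidney, and by 6.88 in CD8+ T cells (difference −6.95 ± 0.25). Ifng changed by −0.87 in NK cells and 4.74 in CD8+ T cells (−5.71 ± 0.27). Styk1, a kinase-like receptor of NK cells, and Fgl2, a secreted fibrinogen-like protein, had differences of −6.70 and −5.66. Kidney cells with a macrophage gene held 416 and 528 CPM of Fgl2 and 0.935 and 1.69 of Styk1. The CD8+ T cell rule did not remove such RNA, and its part in the difference of Fgl2 was not tested. Prf1, at 1.38 in CD8+ T cells, had a difference of −1.41 ± 0.15.

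The named positive differences included genes of resting T cells that CD8+ T cells held less of in the kidney and interferon-induced genes. Lef1, a factor of naive T cells, changed by 0.80 in NK cells and −4.45 in CD8+ T cells (5.16 ± 0.37), with 132 and 89.7 CPM in kidney NK cells and 333 to 464 in spleen CD8+ T cells. Pmepa1 changed by 6.74 and 2.16 (4.65 ± 0.47), and Ifi27l2a, an interferon-induced gene, by 3.90 and −1.03 (4.79 ± 0.39). Klf2 had a difference of 2.13 ± 0.23, with a log2 change of −3.14 in NK cells and −5.36 in CD8+ T cells. Slfn1 rests on 3 and 18 UMIs in kidney NK cells and 0 in the spleen, so that its NK level was at least 37-fold higher in the kidney, taking 3 UMIs over the group as the floor. Its fitted difference depends on the prior count and gives no size. Kidney cells with a macrophage gene held 138 and 268 CPM of Slfn1, against 10.7 and 60.0 in kidney NK cells, and 374 and 1151 CPM of Ifi27l2a, and the part of their RNA in these differences was not tested. The same cells held at most 1.87 CPM of Lef1 and 1.06 of Ccr7. Ccr7 rests on 17.8 CPM in kidney library 1 and 0 in library 2, and its difference of 6.18 dropped to 2.17 (adjusted p = 0.991) without kidney library 1. Ifi27l2a lost its call when cells were chosen after thinning (3.03, adjusted p = 0.0796).

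**Figure D5:**
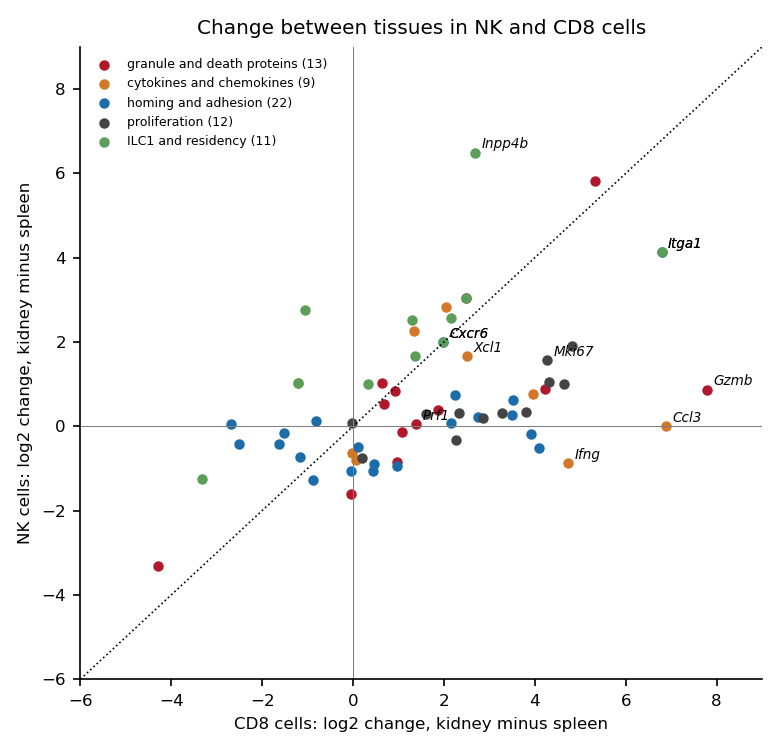
Log2 change from naive spleen to rejecting kidney in CD8+ T cells (horizontal axis) and NK cells (vertical axis) for genes of 5 lists, 1 point per gene and list, with the dotted line at equal change. Gzmb, Ccl3 and Ifng lie far below the line, at 7.79, 6.88 and 4.74 in CD8+ T cells and 0.87, 0.00 and −0.87 in NK cells, and Inpp4b lies above it, at 2.68 and 6.49.

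By function, the NK change was lower than the CD8+ T cell change in 8 of 14 granule and death genes, 8 of 16 activating receptors and adaptors, 4 of 11 cytokines and chemokines, 12 of 25 homing genes and 10 of 13 proliferation genes, and higher in 0, 2, 2, 5 and 0 of them. The medians of these lists were −1.35, −1.07, −0.40, −1.11 and −2.75, and that of the cytokines and chemokines was 0.27 without kidney library 1 and −0.86 without library 2. Of the proliferation genes, 6 were lower by DESeq2 and 4 in NK cells without T cell UMIs. Among transcription factors, 8 of 17 were lower and 4 higher (8 and 2 of 16 in NK cells without T cell UMIs): Zeb2, Id2 and Tbx21 were lower by 4.05, 1.90 and 2.58, and Eomes, which changed by −2.27 in CD8+ T cells, was higher (1.74 ± 0.23). Kidney cells with a macrophage gene held 1950 and 2076 CPM of Zeb2, against 457 and 327 in kidney CD8+ T cells. Of Id2 they held 326 and 172 against 330 and 309. The part of their RNA in these differences was not tested. Of 20 cytokine receptor genes, 6 were lower and 3 higher, and the sign of the list median turned with plain library totals, from 0.09 to −0.23, and without kidney library 1, to −0.06. Without kidney library 2, 1 was higher and 5 lower, with plain library totals 1 and 7, and in NK cells without T cell UMIs 0 and 5. In the list of inhibitory and MHC class I receptors, 3 of 15 were lower (Klrd1, Klrc1 and Klrb1b) and 0 higher, while 6 were lower with plain library totals, 6 in NK cells without T cell UMIs, and 5 lower and 1 higher without UMIs of other lineages. Checkpoints were lower in 3 of 11 (Lag3, Tigit and Entpd1) and higher in 0, and 1 was lower in NK cells without T cell UMIs.

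Of 20 interferon-stimulated genes, 5 were higher (Isg15, Ifit1, Bst2, Oasl2 and Igtp) and 0 lower, with a median of 0.81. This count turned on the library, with 12 higher and a median of 1.19 without kidney library 1 and 2 higher and a median of −0.06 without library 2, and 3 were higher in NK cells without UMIs of other lineages, 3 with plain library totals and 8 with intron length shifts removed. Of 12 ILC1 and residency genes, Inpp4b, Gpr183, Rora and Ltb were higher and 0 lower, while 5 were higher and 1 lower without kidney library 1, and 3 and 2 without library 2. Inpp4b changed by 6.49 in NK cells and 2.68 in CD8+ T cells (3.78 ± 0.26). Of 14 glycolysis genes 4 were lower and 0 higher, and without kidney library 1, 2 were lower and 1 higher. The number of them lower was 7 with plain library totals, 2 by DESeq2 and 1 in NK cells without T cell UMIs. Of 15 immediate early genes 5 were higher and 1, Nr4a2, lower, and 3 were higher with plain library totals. Of 14 myeloid genes 1, Ccr2, was lower and 0 higher, of 6 dendritic cell genes 1, Ccr7, was higher, and of 4 kidney parenchyma genes 1, Pecam1, was higher. Without kidney library 1, 3 myeloid and 0 dendritic cell genes were higher, and without library 2, 2 myeloid genes were lower and 2 parenchyma genes higher. In NK cells without UMIs of other lineages, 4 of 14 myeloid genes were lower and 4 of 5 dendritic cell genes higher. The summed interferon list was 1279 CPM in the NK cells of kidney library 1 and 2909 in those of library 2, against 2215 and 2232 in CD8+ T cells, so the kidney NK libraries differed from each other more than the CD8+ T cells did.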

How the data were processed

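CD45+ cells sorted from 1-week rejecting kidney allografts and naive spleen had been profiled by 10x 3' single-cell RNA-seq. The values are whole UMI counts per gene and cell, which the authors made with Cell Ranger on mm10 (per the submitters' processing notes, version not given in the sources used here) and filtered for low-quality cells before they were deposited. The kidney matrix listed 32285 genes and the spleen matrix 17644, all of them also in the kidney matrix. Kidney libraries 1 and 2 and spleen libraries 1 to 5 were told apart by the tags in the cell names, and the labels name no mice. The members and the 24 gene lists (317 genes) were chosen with earlier results of these data known.

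UMI counts were summed per library and cell group. Levels are CPM of the group's UMIs. Kidney and spleen NK cells were compared with edgeR 4.0.16 (R 4.3.3): TMM, filterByExpr and the robust quasi-likelihood test, Benjamini-Hochberg adjusted p under 0.05. The difference between the NK change and the CD8+ T cell change was an interaction term, with the library as a block. The 11 rule genes stayed in the sums and out of the calls. NK and CD8+ T cells of the kidney were compared by ratio alone, at least 2-fold in each library with at least 50 CPM in the higher group. Intron lengths were found for 99.5% of the genes tested. On counts simulated at these depths and library numbers, the kidney and spleen test recovered 17.2% of genes changed by 1 on the log2 scale. It recovered 78.4% of those changed by 2, with 6 false calls. The test of the difference recovered 5.15% and 34.0%, with 3 false calls. In these simulated counts, most changes of 1 on the log2 scale were missed. Their gene levels came from the NK and CD8+ T cell sums together, and their spread was fixed and not taken from the data. The shares recovered in the real sums may therefore differ. Shares were compared by exact permutation (scipy 1.17.1) and given intervals that cover counting error only.

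Named genes were the rule genes, Eomes, the 10 highest and 10 lowest changes among genes called at 100 CPM or more for the first pair of comparisons and 5 each way for the interaction, without the rule genes, mitochondrial, ribosomal protein, immunoglobulin, T cell receptor, Gm and Rik genes, up to 6 members a list at 50 CPM or more in the order of their NK level, and the strain-dependent genes. Other list members were named after their values were seen. Alternatives covered the scaling, DESeq2 1.42.0, filters, intron length shifts, each library left out, stricter rules for NK cells, cell quality and depth. The authors' CD8 T cell matrices served only to count shared cells, and the other deposited matrices were not used here. One gene of the homing list, counted in the list totals, is not reported here.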

Additional observations from a re-analysis of the deposited data

Results flagged for a closer look

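For 10 genes the change from naive spleen to rejecting kidney differed between NK cells and CD8+ T cells in edgeR's test of the difference, 5 in each direction, taken by their fitted values among the genes called. The NK change was higher for Ccr7 (6.18 on the log2 scale), Lef1 (5.16), Ifi27l2a (4.79) and Pmepa1 (4.65), and for Slfn1, and lower for Gzmb (−6.97), Ccl3 (−6.95), Styk1 (−6.70), Ifng (−5.71) and Fgl2 (−5.66). Their adjusted p-values ran from 3.56e-40 for Ccl3 to 0.0112 for Slfn1. The fitted value of Slfn1 (10.37) depends on the prior count and is no bound, since the gene had 0 UMIs in spleen NK cells and 21 in kidney NK cells, at least 37-fold higher. Ccr7 rests on few UMIs in NK cells.

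In the NK cells of the 5 spleen libraries, 1 library stood far from the others in 4 of the 29 sets of values checked, which were the named genes, the NK share and the NK depth. Slc8a1 was at 1.62 CPM in library 4 and at 0 in the others, and Pmepa1 was at 0 in library 3 against a median of 1.64, and each of these differences is 1 UMI. AI506816 was at 149.3 CPM in library 1 (median 123), and Ifi27l2a at 3.69 in library 2 (median 11.35). Chance flags about 1 in 20 such groups. For Slc8a1, leaving out library 4 ended the call between kidney and spleen (9.11, adjusted p = 0.140), and the cause was not tested.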

How the results depend on the processing

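Kidney and spleen libraries could not be paired, because the spleens came from naive mice and the kidneys from transplant recipients. The NK and CD8+ T cell sums of a library were paired in the test of the difference, with the library as a block. For NK cells of kidney against spleen, 1656 genes were higher and 1360 lower. Without cells holding T cell UMIs, the counts were 773 and 620 of 3819 genes tested, since fewer cells pass fewer genes, and DESeq2 gave 789 lower. Leaving out each library gave 1332 to 1620 higher and 956 to 1290 lower. Of the calls, 54.9% were higher, against 65.3% with plain library totals, which moved the median gene from −0.02 to 0.11, and 63.7% with DESeq2. For the NK change minus the CD8+ T cell change, 673 were higher and 943 lower. Plain library totals gave 430 and 1988 with a median of −0.41 in place of −0.08 and 17.8% of calls higher in place of 41.6%, DESeq2 gave 518 lower and 50.1% higher, and NK cells without T cell UMIs 366 and 477. Leaving out each library gave 534 to 634 and 818 to 904. The cause of these shifts was not tested.

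Within the kidney, 189 genes were higher and 93 lower in NK cells. A minimum of 20 CPM gave 315 and 211 of 6573 genes, a 1.5-fold limit 351 and 212, and a 4-fold limit 65 and 33, as their construction fixes. With at least 3 rule genes 145 were lower, and without other lineage UMIs 171. The NK share in kidney minus spleen, 0.297 points, turned to −0.873 with at least 3 rule genes. It turned to −0.269 without other lineage UMIs and to −0.324 with the rule applied after thinning. The rule of 3 genes drops the members with exactly 2, which were 140 in the kidney and 15 in the spleen. What these turns come from was not tested. The other 3 alternatives kept the sign of the share difference, at 0.026 to 0.408 points. For the 10 highest and 10 lowest called genes, 334 alternative values of the kidney and spleen comparison kept their call and direction and 2 lost the call (Cxcl9 and Slc8a1), and for the 5 highest and 5 lowest differences 168 kept it and 2 lost it (Ccr7 and Ifi27l2a). These counts leave out the other list members, among which Nkg7, Trbc1 and Id2 lost their call and Ets1 turned, as examples, with intron length shifts removed. The counted genes were picked as the largest changes in these data, so their stability does not stand for all calls. Of all 3016 kidney and spleen calls, 1980 kept call and direction without kidney library 1 and 2143 without library 2. Leaving out a spleen library kept 2732 to 2827, DESeq2 2163, and NK cells without T cell UMIs 1311 of 1939 tested. Of the 1616 differences, 1149 stayed without kidney library 1, 1090 without library 2 and 775 in NK cells without T cell UMIs. Of the NK over CD8+ T cell ratios, 103 stayed within the spread between libraries, 37 moved beyond it and 0 turned. The 2 kidney libraries and the shallow NK cells limit what could be called.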
